A study of Mus musculus with 45 samples.

Results

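The genes described here are 10 mouse genes whose proteins belong to the contractile machinery and energy supply of striated muscle: the troponin I genes Tnni1 and Tnni2, the troponin T genes Tnnt1, Tnnt2 and Tnnt3, the troponin C genes Tnnc1 and Tnnc2, the actins Acta1 and Actc1, and the muscle creatine kinase Ckm. They were found by symbol, 10 of 24422 gene rows, and the set was chosen on results of these same samples, in which Tnni2 was among the genes lower in endometrium than in myometrium; the layer differences of the members are therefore a description and not a test. Expression was measured by STRT RNA-seq, which captures the 5′ ends of polyadenylated transcripts, in sexually mature female CD-1 mice that were wildtype (WT) or carried a Plag1 knockout (Plag1KO, here KO). Every mouse in every group had been superovulated by injection of 5 IU pregnant mare serum and, 2 days later, 5 IU human chorionic gonadotropin, and was killed on the following day, so no unstimulated uterus was compared. The tissues of each mouse were intact horn (called uterus), scraped mucosa (endometrium) and the muscular wall left after scraping (myometrium), which makes 6 groups of 7 mice and 42 mouse and tissue samples from 14 mice. The KO line was kept by breeding of heterozygotes, the endometrium is a scraping and not a sorted cell type, and the layers are RNA from mixed cells, in which fewer cells of a type and less RNA per cell cannot be told apart.

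Troponin is the calcium switch of striated muscle. Troponin C binds calcium, troponin I blocks the interaction of actin with myosin, and troponin T ties both to tropomyosin on the actin filament. The family has slow skeletal, fast skeletal and cardiac forms: Tnni1, Tnnt1 and Tnnc1 (also cardiac) belong to slow fibres, Tnni2, Tnnt3 and Tnnc2 to fast fibres, and Tnnt2 to the heart. Acta1 and Actc1 encode the actins of skeletal and cardiac muscle, and Ckm encodes the creatine kinase that regenerates ATP in muscle. Uterine smooth muscle is regulated mainly through myosin phosphorylation rather than troponin, and its own actins are Acta2 and Actg2.

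In the mouse genome build NCBIM37 (mm9), some members lie near each other on the same chromosome, and genes between them were not searched for. Tnni1 (chromosome 1, 137679642 to 137707566) and Tnnt2 (chromosome 1, 137737452 to 137748837) are on the plus strand, 29886 bases apart. Tnni2 (chromosome 7, 149627713 to 149630315) and Tnnt3 (chromosome 7, 149684741 to 149701914) are also on the plus strand, 54426 bases apart, and Tnnt3 overlaps the antisense gene Gm14492. Acta1 lies on chromosome 8, 126415669 to 126418651, on the minus strand, where it overlaps Gm20388 on the other strand. Actc1 (chromosome 2, 113873018 to 113879284, minus strand) overlaps RP23-230H3.2, Tnnc1 overlaps Nisch and Tnnc2 overlaps Ube2c, in each case on opposite strands. Ckm (chromosome 7, 19996443 to 20006932, plus strand) overlaps Gm17405 on its own strand and A930016O22Rik on the other. Use of strand in the counting was not stated, so reads of these overlapping pairs could not be told apart. In a search of the first 100 bases of the members' transcripts, 0 other protein-coding genes matched them at 90% identity or more over at least 50 bases.

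Smooth and striated muscle actin genes are known to carry CArG boxes, the binding motif of serum response factor, near their starts. Promoter windows of 300 bases (250 before to 50 after a gene's start) were available from RefSeq, build GRCm38.p6, for 8 of the 10 members, in 10 windows; Tnni2 and Tnnt3 were not matched. A CArG box on either strand was present in the windows of Acta1, 73 bases before the start, and Actc1, 47 bases before the start, in 0 of the other windows of members, and in 535 of all 32851 windows (1.63%). A MEF2 site was present in 3.19% of all windows and in 0 of those of the members. An E-box (CANNTG), which by its short length is present in 72.3% of all windows, was found in each of the members' windows. The 200 bases before the start of both actins and of Ckm, which had no CArG box in its window, are shown 5′ to 3′ on the strand of the gene to let the position of the box be seen, with the CArG box in capitals. They are chr8:123894776-123894975 (minus), chr2:114052876-114053075 (minus) and chr7:19410894-19411093 (plus). These matches are letters in a window and not measured binding. The same search found 0 CArG boxes in the window of the smooth muscle actin Acta2. A window without a match is therefore not shown to lack a box.
Acta1: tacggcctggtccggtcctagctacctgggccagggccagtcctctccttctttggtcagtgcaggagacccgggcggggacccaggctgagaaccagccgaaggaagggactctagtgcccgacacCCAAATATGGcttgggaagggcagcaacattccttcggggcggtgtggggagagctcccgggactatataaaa
Actc1: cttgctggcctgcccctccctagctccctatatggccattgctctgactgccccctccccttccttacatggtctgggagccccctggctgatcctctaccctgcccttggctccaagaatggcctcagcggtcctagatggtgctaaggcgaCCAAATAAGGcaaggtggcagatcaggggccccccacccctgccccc
Ckm: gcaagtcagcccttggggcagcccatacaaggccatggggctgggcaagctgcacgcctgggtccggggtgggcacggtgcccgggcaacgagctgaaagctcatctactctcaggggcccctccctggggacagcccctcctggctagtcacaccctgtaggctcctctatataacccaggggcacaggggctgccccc

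Total gene counts ranged from 256298 to 1222627 over the 45 libraries, so that 3 counts, the floor used for detection, correspond to between 2.45 and 11.7 CPM (a count scaled to the library's total gene counts) in a library. Detection was applied after libraries of a mouse and tissue were summed. In the endometrium of KO mouse 13, summed from 3 libraries, 1 count was 0.411 CPM, so the floor there lay below this range. Levels are given as CPM of all gene counts without spike-ins. A 5′ tag count does not scale with transcript length. The level of a member is compared here mainly between samples. Summed levels of marker lists, and counts of members and smooth muscle genes, are also set beside each other. The 14 smooth muscle markers were lower and the 5 epithelial markers higher in endometrium than in myometrium in both genotypes. Some endometrium scrapings held much smooth muscle RNA. Acta2 stood at 1627 CPM in WT mouse 1, at 3943 CPM in WT mouse 3 and at 3183 CPM in KO mouse 13. The other WT endometria held 60.1 to 845 CPM of Acta2, and the other KO endometria 15.7 to 191 CPM. The targeted gene, Plag1, reached no more than 1 count per library in either genotype and so does not check the genotype labels.

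With detection set at 3 counts in a sample, and expression in a group at detection in at least 4 of its 7 mice, the 10 members divided unevenly. Tnni2, Tnnt2, Acta1 and Ckm were expressed in 5 of the 6 groups, KO endometrium being the exception. Tnnt3 and Actc1 were expressed in 4 groups, those of uterus and myometrium, and Tnnt1 in 2, WT uterus and WT myometrium. Tnnt1 lay near the floor, with 23 counts in WT and 24 in KO myometrium (means 5.29 and 5.94 CPM). Its listing in WT myometrium alone is therefore not a genotype difference. Tnni1, Tnnc1 and Tnnc2 were expressed in 0 groups. The tissue thus had tags for a fast troponin I, a fast, a cardiac and, near the floor, a slow troponin T, and both striated actins. Neither troponin C form was past the detection rule in any group.

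**Figure D1:**
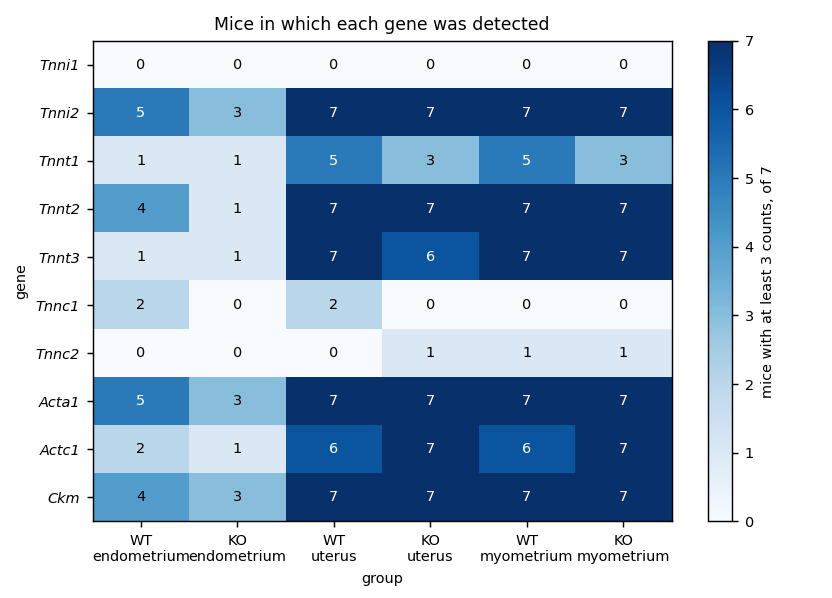
Number of mice, of 7 in each of the 6 groups (columns), in which each of the 10 genes (rows) had at least 3 counts; darker cells hold more mice. Tnni1 was at 0 in all groups, and Acta1 was detected in 7 of 7 mice in the uterus and myometrium of both genotypes.

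Among the inhibitory subunits, Tnni2, the fast skeletal troponin I, was detected in 36 of 42 samples. In WT mice its lowest, median and highest values were 34.0, 53.1 and 341 CPM in myometrium, 5.15, 14.8 and 298 CPM in uterus, and 0, 4.64 and 14.7 CPM in endometrium. In KO mice they were 9.68, 48.6 and 96.1 CPM in myometrium, 3.48, 14.4 and 37.4 CPM in uterus, and 0, 3.18 and 6.17 CPM in endometrium. The myometrium values lay above the endometrium values without overlap in both genotypes, and the uterus overlapped both layers. The WT values spread widely: mouse 10 was high in both uterus (298 CPM) and myometrium (341 CPM), whereas mouse 3 was high in myometrium (252 CPM) and not in uterus (14.8 CPM). Tnni1, the slow form, had 11 counts in all 42 samples together and at most 2 in any of them. Tnni3, the cardiac form and no member of the set, reached 3 counts in 1 sample of KO myometrium, where it stood at 4.70 CPM.

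Among the tropomyosin-binding subunits, Tnnt2, the cardiac troponin T, was detected in 33 samples. In WT mice the lowest, median and highest levels were 26.3, 138 and 254 CPM in myometrium, 28.2, 57.6 and 140 CPM in uterus and 0, 3.86 and 37.1 CPM in endometrium. In KO mice they were 37.3, 55.9 and 153 CPM in myometrium, 10.3, 29.4 and 34.3 CPM in uterus and 0, 0 and 23.0 CPM in endometrium. The layers overlapped in WT and not in KO, where mouse 13 alone had more than 1 count in endometrium, with 56. The highest WT endometrium, that of mouse 8 at 37.1 CPM, held less Acta2 (845 CPM) than those of mice 1 and 3. Tnnt3, the fast form, stood at 22.1 to 59.4 CPM in WT myometrium (median 51.7) and 13.4 to 74.0 CPM in KO myometrium (median 31.8). Its uterus values were 8.46 to 40.4 CPM in WT and 1.84 to 30.3 CPM in KO, and its endometrium values 0 to 6.70 CPM in WT and 0 to 4.52 CPM in KO. Tnnt3 was thus separated between layers in both genotypes, with 6 counts in all WT endometria together and 12 in all KO endometria, 11 of them in mouse 13. Tnnt1, the slow form, had 130 counts in all 42 samples and 16.5 CPM at its highest, in the uterus of WT mouse 5. Its medians in WT were 6.35 CPM in uterus, 6.47 CPM in myometrium and 1.55 CPM in endometrium, and in KO 4.12, 4.27 and 0 CPM.

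The calcium-binding subunits were at the edge of detection. Tnnc1, the slow and cardiac troponin C, had 39 counts in all and was detected in 4 samples, all of them WT, with 11.4 CPM at its highest in the endometrium of mouse 7. Tnnc2, the fast form, had 36 counts in all and was detected in 3 samples, at 8.23 CPM in 1 KO uterus, 8.62 CPM in 1 WT myometrium and 6.58 CPM in 1 KO myometrium. In KO mice Tnnc2 had 1 count in endometrium and 11 in myometrium, a depth-adjusted ratio of 0.0524 with an exact 95% Poisson interval from 0.00122 to 0.361 that covers counting error only. In WT mice it had 0 counts in endometrium and 8 in myometrium, too few for a fold. At this depth, low expression of either troponin C was not detectable and is not shown to be absent.

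The skeletal actin Acta1 was detected in 36 samples. Its lowest, median and highest values in WT were 90.1, 263 and 515 CPM in myometrium, 63.1, 132 and 226 CPM in uterus and 3.25, 10.3 and 114 CPM in endometrium. In KO they were 265, 311 and 410 CPM in myometrium, 108, 142 and 224 CPM in uterus and 0, 3.38 and 129 CPM in endometrium. In each of the 14 mice the uterus lay between the layers. The high endometrium values were those of WT mouse 3 (114 CPM), WT mouse 1 (54.6 CPM) and KO mouse 13 (129 CPM), the scrapings with the most Acta2. Mouse 13 had been sequenced from 3 endometrium libraries, and Acta1 was high in each, with 121, 91 and 101 counts. The cardiac actin Actc1 had medians of 18.01 CPM in WT and 26.3 CPM in KO myometrium, 6.58 and 12.0 CPM in uterus, and 2.57 and 0 CPM in endometrium. Its highest value was 63.7 CPM, in the myometrium of KO mouse 11, and the myometrium of WT mouse 5, at 1.88 CPM, was the lowest of the 14.

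Ckm, the creatine kinase of striated muscle, had medians of 42.04 CPM in WT and 46.3 CPM in KO myometrium, 13.9 and 17.2 CPM in uterus and 3.86 and 1.39 CPM in endometrium. Its highest values were 101 CPM in the myometrium of WT mouse 3 and 70.6 CPM in the uterus of KO mouse 14. The endometria of WT mouse 1 (15.6 CPM), WT mouse 3 (34.9 CPM) and KO mouse 13 (37.0 CPM) lay within the range of myometrium, so that the layers overlapped in both genotypes. The mitochondrial muscle creatine kinase Ckmt2 had 0 counts in all 42 samples.

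**Figure D2:**
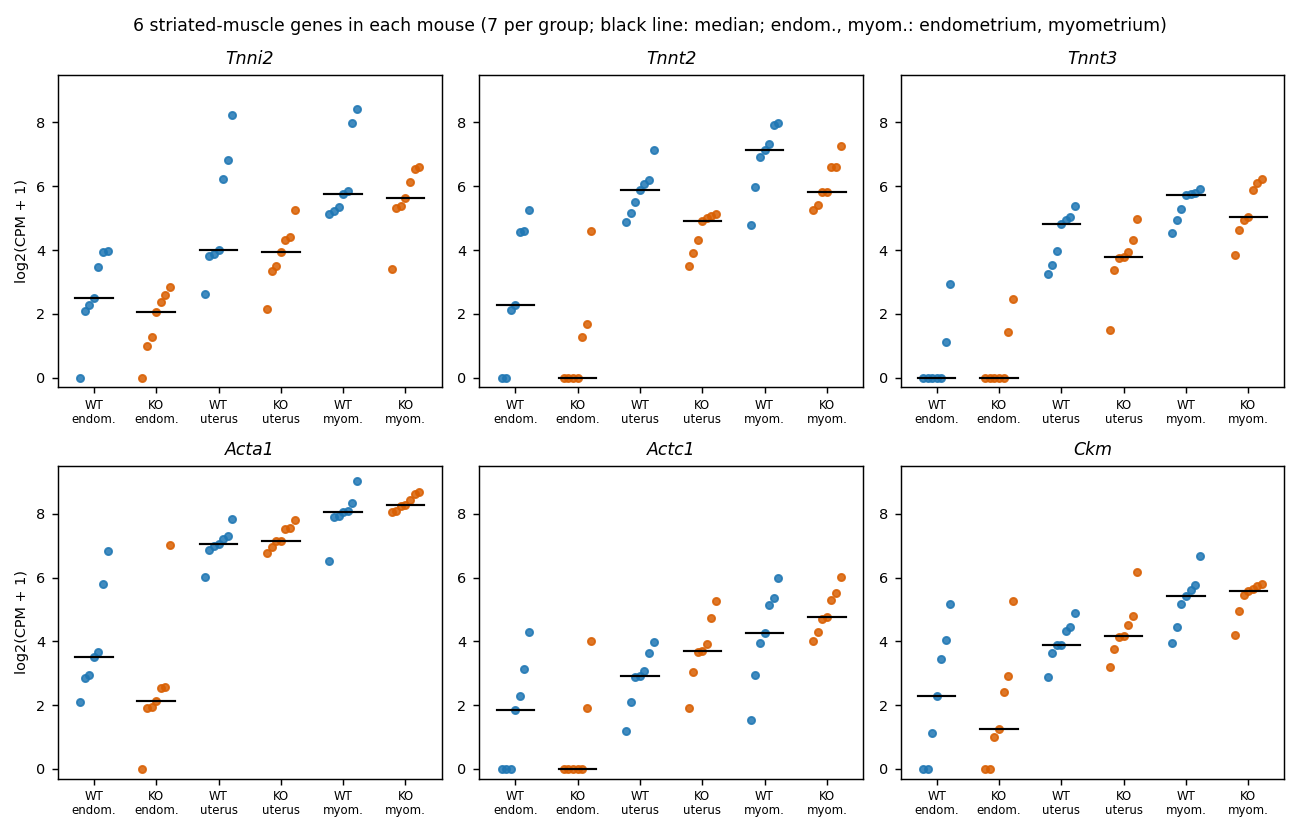
Level of the 6 genes detected most widely, as log2(CPM + 1), with 1 point per mouse, in WT (blue) and KO (orange) endometrium, uterus and myometrium; black lines mark the medians of 7 mice. Tnni2 and Tnnt3 do not overlap between endometrium and myometrium in either genotype, and the highest orange point in the endometrium panels of Tnnt2 and Acta1 is mouse 13.

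The comparison of the scraped mucosa with the remaining wall asks in which layer these transcripts are found. In WT mice, the log2 fold changes (endometrium minus myometrium, edgeR, ± SE, n = 7 and 7) were -3.99 ± 0.59 for Tnni2, -3.65 ± 0.58 for Tnnt2, -4.88 ± 0.55 for Tnnt3, -3.31 ± 0.54 for Acta1, -2.38 ± 0.66 for Actc1 and -2.38 ± 0.60 for Ckm. These 6 of the 8 members that passed the filter on low counts were called lower in endometrium, beside 6.39% of the 13227 genes tested. Tnnt1, at -1.33 ± 0.63, and Tnnc1, at 1.79 ± 0.95, were not called. In KO mice the values were -3.97 ± 0.45 for Tnni2, -2.70 ± 0.68 for Tnnt1, -3.67 ± 0.60 for Tnnt2, -4.65 ± 0.58 for Tnnt3, -3.65 ± 0.66 for Acta1, -2.95 ± 0.61 for Actc1 and -2.14 ± 0.58 for Ckm. With Tnnc2, whose counts are given above, 8 of 8 members that passed the filter were called lower, beside 8.71% of 12969 genes. Tnnc2 reached 1 CPM in KO myometrium samples only, with 0.411 CPM at its highest in KO endometrium. It passed the filter through the layer where it is high, so its direction was set on entry. Tnnt1 in KO rested on 6 counts in endometrium and 24 in myometrium. Since the set was chosen with this contrast known, nothing is read from these counts. With libraries scaled to the spike-ins, 6 members in WT were called lower beside 3.51% of genes, and 7 in KO beside 3.23%.

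Within mice, endometrium was below myometrium in 7 of 7 WT and 7 of 7 KO mice for Tnni2, Tnnt2, Tnnt3 and Acta1. For Actc1 and Ckm it was below in 7 WT and 6 KO mice, and for Tnnt1 in 6 WT and 7 KO mice. Tnnc1 went the other way in most mice with counts, being higher in endometrium in 5 WT and 3 KO mice and lower in 1 of each genotype. All endometrium values lay below all myometrium values for 2 members in WT, Tnni2 and Tnnt3, beside 1.6% of genes tested, and for 4 members in KO, which added Tnnt2 and Acta1, beside 2.58%. The median log2 fold change of the members that passed the filter was -2.85 in WT and -3.48 in KO, beside 0.01 and 0.08 over all genes tested. Without the mice whose endometrium held over 1000 CPM of Acta2 (WT 1 and 3, KO 13), a choice made after the data were seen, 6 members in WT and 8 in KO were called lower, beside 4.95% and 8.62% of genes. The KO median and this KO count include Tnnc2, which passed the filter through myometrium only.

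Relatives of the members gave layer differences of several sizes. The smooth muscle actins lay within the range of the members, with Acta2 at -2.85 in WT and -3.84 in KO and Actg2 at -2.68 and -3.63. The cytoplasmic actin Actb differed less, at -0.72 and -0.93, and Actg1, at 0.30 and -0.22, was not called in either genotype. Ckb, the brain-type creatine kinase, was lower in endometrium (-2.35 in WT and -2.87 in KO), and Ckmt1, the ubiquitous mitochondrial creatine kinase, was higher (2.21 and 2.78).

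**Figure D3:**
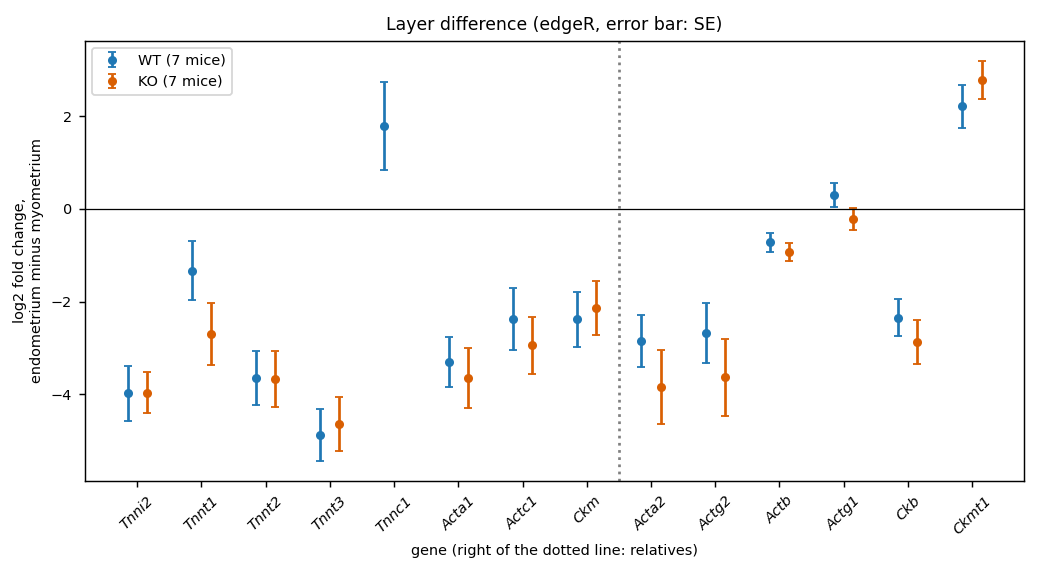
Log2 fold change of endometrium minus myometrium from edgeR, with the SE as error bar, in WT (blue) and KO (orange), for members with a fitted value in at least 1 genotype, except Tnnc2, and, right of the dotted line, for relatives. Tnnt3 is lowest, at -4.88 in WT and -4.65 in KO, and Ckmt1 lies above 0 in both genotypes.

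Markers of other muscle types were read over whole lists. Of 19 skeletal muscle fibre genes, 9 were detected in 0 of 42 samples, and the defining fast myosins Myh1, Myh2 and Myh4 and the oxygen carrier Mb had 0 counts in all. The summed level of the 19 genes ranged from 33.8 to 80.4 CPM in WT myometrium and 29.9 to 78.3 CPM in KO myometrium, from 10.7 to 37.5 CPM in WT uterus and 9.28 to 44.8 CPM in KO uterus, and from 16.7 to 48.9 CPM in WT endometrium and 8.44 to 30.0 CPM in KO endometrium. The listed skeletal genes with the highest mean were Pygm and Eno3, enzymes of glycogen breakdown and glycolysis, and the Z-disc and thick filament genes Actn3 and Mybpc2. Of 8 skeletal genes that passed the filter in WT, 2 were lower in endometrium, Mybpc2 (-2.48 ± 0.83) and the Z-disc gene Tcap (-2.79 ± 0.92), and of 6 in KO, 3 were lower, Mybpc2 (-2.23 ± 0.70), Actn3 (-2.32 ± 0.74) and Pygm (-1.46 ± 0.42). Most of these rest on few counts. In WT, endometrium and myometrium held 4 and 28 counts of Mybpc2 and 1 and 12 of Tcap. In KO they held 10 and 23 of Mybpc2, 8 and 23 of Actn3 and 47 and 79 of Pygm.

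Of 12 cardiac muscle genes, 5 were detected in 0 samples, and the slow and beta-cardiac myosin Myh7 and the cardiac Mybpc3 had 0 counts in all. The list summed to 5.18 to 17.7 CPM in WT and 5.79 to 16.8 CPM in KO myometrium, to 5.29 to 11.6 CPM in WT and 1.16 to 20.6 CPM in KO uterus, and to 0 to 27.3 CPM in WT and 1.39 to 10.9 CPM in KO endometrium. Of 4 that passed in WT, 1 was called lower in endometrium, Nppa, the atrial natriuretic peptide gene, and of 3 in KO, 0 were called. Nppa had 0 counts in WT endometrium and 15 in WT myometrium, too few for a fold, and it passed the filter through myometrium only. Smooth muscle genes, by contrast in level, summed to 28984 to 67906 CPM in WT and 38237 to 65688 CPM in KO myometrium, to 15817 to 30525 CPM in WT and 16897 to 34945 CPM in KO uterus, and to 1066 to 24363 CPM in WT and 753 to 25068 CPM in KO endometrium. All 14 were lower in endometrium in both genotypes, with medians of -2.95 and -3.56.

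Of 9 transcription factors of muscle genes, the myogenic factors Myod1, Myog and Myf5 were detected in 0 samples. Of 5 that passed the filter, 2 were lower in WT endometrium, Mef2c and Myocd, and 3 in KO endometrium, which added Srf. Mef2c was at -1.62 ± 0.43 in WT and -1.57 ± 0.39 in KO, and Srf, the factor that binds the CArG box, was at -1.09 ± 0.49 in WT, not called, and -1.16 ± 0.36 in KO. Myocd, the smooth muscle coactivator of Srf, was at -3.64 ± 0.63 in WT and -3.005 ± 0.66 in KO. Of the adipocyte genes, 1 of 2 that passed in WT and 1 of 1 in KO were lower in endometrium, in both cases Fabp4, a fatty acid carrier that endothelium also expresses (-2.60 ± 0.53 and -3.61 ± 0.55). Of 4 mesothelium genes, 0 in WT and 2 in KO were lower, Msln (-2.35 ± 0.78) and Upk3b (-2.71 ± 0.65). The part of other cell types in the members' levels was not tested.

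Counts of the members per 1000 counts of the 14 smooth muscle genes, summed over the mice of a group, show how they varied beside smooth muscle RNA. Acta1 stood at 5.76 in WT and 6.15 in KO myometrium, at 6.03 and 6.46 in uterus and at 4.18 and 4.90 in endometrium. Actc1 lay between 0.325, in WT uterus, and 0.736, in WT endometrium, and Ckm between 0.733, in WT uterus, and 1.47, in KO endometrium. Mouse 13 held 90 of the 98 Ckm counts in KO endometrium, where the median over mice was 1.03 (0 to 5.68). Mouse 3 held 14 of the 22 Actc1 counts in WT endometrium, where the median over mice was 0.458. Tnnt3 stood at 0.982 in WT and 0.779 in KO myometrium, at 1.01 and 0.585 in uterus and at 0.201 and 0.180 in endometrium, on 6 and 12 counts there. Tnnt2 stood at 3.14 in WT and 1.58 in KO myometrium and at 2.76 and 1.06 in uterus, and Tnni2 at 2.63 and 1.11 in myometrium and 3.29 and 0.707 in uterus. Single mice weigh heavily in such sums. The median over mice for Acta1 was 2.30 in KO endometrium (lowest 0) and 7.08 in KO uterus. For Tnni2, of whose WT counts mouse 10 held 290 of 556 in uterus and 293 of 540 in myometrium, the medians over mice were 0.767 in WT and 0.577 in KO uterus and 1.36 and 0.831 in myometrium. For Tnnt2 they were 2.48 in WT and 1.34 in KO uterus and 2.85 and 1.41 in myometrium.

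**Figure D4:**
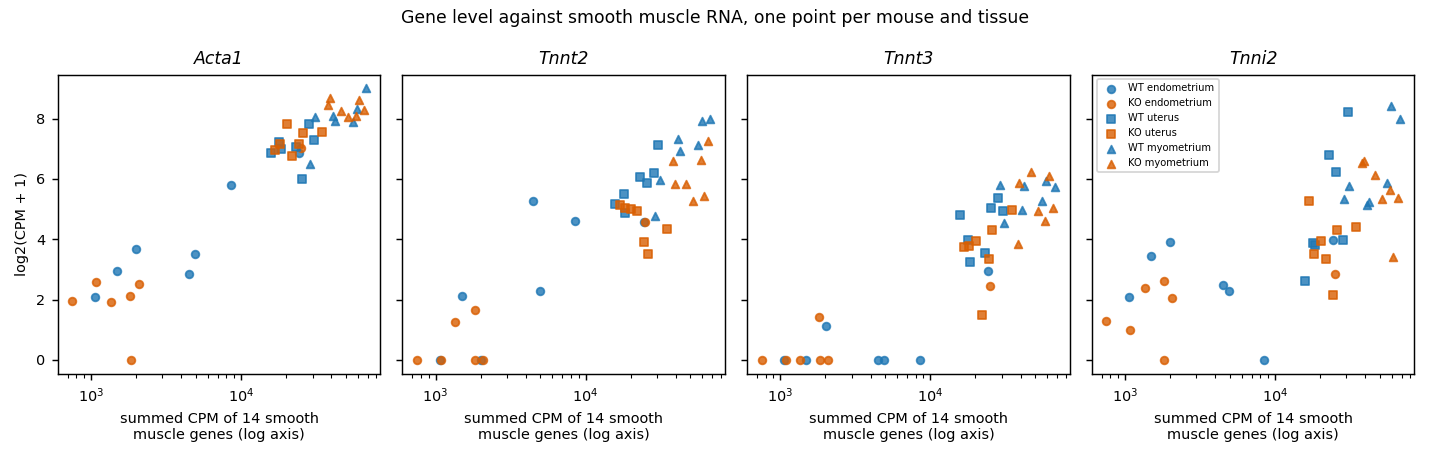
Level of Acta1, Tnnt2, Tnnt3 and Tnni2 as log2(CPM + 1) against the summed CPM of 14 smooth muscle genes (log axis), 1 point per mouse and tissue, circles for endometrium, squares for uterus and triangles for myometrium, WT blue and KO orange. The 3 endometrium points with summed smooth muscle levels of 8521, 24363 and 25068 CPM (WT mice 1 and 3, KO mouse 13) are also the 3 highest endometrium points for Acta1.

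The genes whose log2(CPM + 1) was most like that of a member over the 42 samples, among 4298 genes with a mean of at least 20 CPM, were found by Pearson r. For Acta1 they were Myl9 (0.96), Pcp4 (0.96) and Myh11 (0.96), for Tnnt2 they were Cnn1 (0.91), Pdlim3 (0.91) and Acta2 (0.91), and for Tnnt3 they were Smtn (0.91), Srpx (0.90) and Fxyd1 (0.90). For Ckm they were Hspb7 (0.87), Kcnmb1 (0.87) and Postn (0.86). For Tnni2 they were Wfikkn2 (0.84), Ehbp1l1 (0.78) and Tnnt3 (0.77). By Spearman rho, Wfikkn2 for Tnni2 and Kcnmb1 for Ckm ranked 1. The other named genes fell out of the top 3, with ranks from 4 (Cnn1) to 52 (Acta2), so the order depends on the measure. The 42 samples are 14 mice in 3 tissues that differ in muscle content, and a shared tissue difference is enough for a high r. Actc1 and the other members were below 20 CPM on average and were not searched.

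The comparison of KO with WT mice asks whether loss of Plag1 changed these transcripts in each tissue, and it was not used to choose the set. By edgeR's quasi-likelihood test with Benjamini-Hochberg adjustment over all genes, 0 of 8 members tested in uterus, 0 of 7 in endometrium and 0 of 8 in myometrium were called, beside 0% of all genes in each tissue. At an unadjusted p under 0.05 there were 3 members in uterus beside 5.64% of all genes, 1 in endometrium beside 5.2% and 2 in myometrium beside 4.22%. These small counts move with single mice and with plate rows: without KO mouse 13 there were 5 of 7 members in endometrium beside 5.41% of genes, within plate rows A to C 4 beside 6.02%, and without WT mouse 10 there were 0 in myometrium beside 4.38%, with 0 members called at the adjusted threshold in each of these settings. DESeq2 called 0 members in each tissue, with 3, 0 and 1 at an unadjusted p under 0.05. Acta2 in endometrium had a median of 478 CPM in WT and 127 CPM in KO. The part of this muscle RNA in the endometrium counts was not tested.

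Tnnt2 was the member with the smallest p in uterus. Its mean was 24.3 ± 9.68 CPM (SD, n = 7) in KO and 63.3 ± 37.4 CPM (SD, n = 7) in WT. In 6 of 7 WT mice it was above the highest KO value, and in 3 of 7 KO mice below the lowest WT value. The log2 fold change was -1.27 ± 0.36 (SE; edgeR, unadjusted p = 0.0017, adjusted p = 0.570). In myometrium the means were 76.7 ± 41.4 CPM in KO and 144 ± 85.1 CPM in WT, with broad overlap, and the log2 fold change was -0.88 ± 0.34 (edgeR, unadjusted p = 0.0136, adjusted p = 1.00). Without WT mouse 10, the highest WT uterus, the log2 fold change in uterus was -0.96.

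Tnni2 had means of 16.3 ± 11.0 CPM in KO and 75.8 ± 106 CPM in WT uterus, and its medians, 14.4 and 14.8 CPM, were close. The log2 fold change of -2.10 ± 0.67 (edgeR, unadjusted p = 0.00474, adjusted p = 0.631) stood beside 3 WT mice above the highest KO value, and it was -1.12 without WT mouse 10. In myometrium the means were 56.4 ± 31.0 CPM in KO and 116 ± 126 CPM in WT, with a log2 fold change of -1.05 ± 0.44 (edgeR, unadjusted p = 0.0225, adjusted p = 1.00), which was -0.45 without WT mouse 10. Mice of plate rows A to C (5 WT, 3 KO) gave -0.60 in myometrium and those of rows D to F (2 WT, 4 KO) -1.76, with an edgeR adjusted p of 0.00113 in the latter. The WT mice of rows D to F are mouse 10, the highest, and mouse 12. The uterus and myometrium samples come from the same mice, so both tissues are not separate evidence.

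The actins and the other members gave smaller or less certain differences. Actc1 in uterus was at 15.8 ± 11.8 CPM in KO and 7.30 ± 4.597 CPM in WT, a log2 fold change of 1.06 ± 0.50 (edgeR, unadjusted p = 0.0455, adjusted p = 0.862), which within plate rows A to C was -0.03 and within rows D to F 1.77. Tnnc1 in endometrium was at -1.84 ± 0.87 (edgeR, unadjusted p = 0.0441, adjusted p = 0.952), on 5 counts in KO and 13 in WT. Acta1 differed by 0.21 ± 0.25 in uterus, -0.13 ± 0.85 in endometrium and 0.26 ± 0.22 in myometrium on the log2 scale, and Ckm by 0.62 ± 0.41, 0.08 ± 0.83 and -0.05 ± 0.34. The endometrium values depend on KO mouse 13, which held 313 of the 327 Acta1 counts of KO endometrium: without it Acta1 was at -3.002 and Ckm at -1.99, and neither was called. Of the 14 smooth muscle genes 0 were called between genotypes in any tissue, with Acta2 at 0.16 ± 0.20 in uterus and 0.20 ± 0.18 in myometrium.

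**Figure D5:**
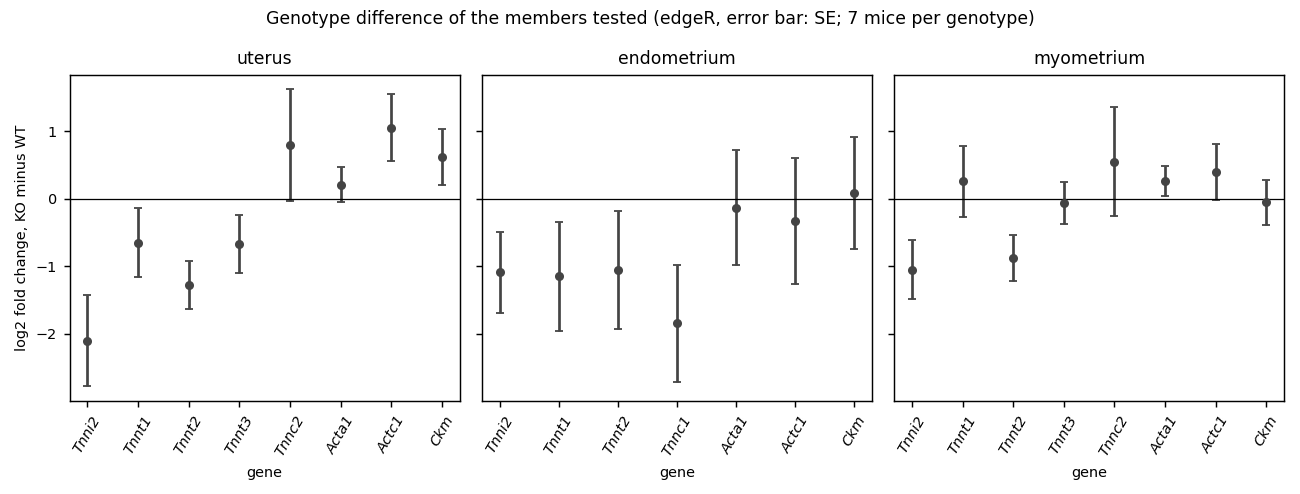
Log2 fold change of KO minus WT from edgeR, with the SE as error bar, for the members tested in uterus, endometrium and myometrium (7 mice per genotype). Tnni2 and Tnnt2 lie below 0 in the 3 tissues, at -2.10 and -1.27 in uterus, and 0 members passed the adjusted threshold.

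The difference between the layer differences of the genotypes was tested as an interaction. Of 9 members tested, 0 were called, beside 0% of 14314 genes, and 0 were at an unadjusted p under 0.05, beside 4.6%. KO mouse 13 decides the latter count: without it 4 members were at an unadjusted p under 0.05, beside 5.08%, and without the 3 mice whose endometrium was rich in Acta2 3 were, beside 4.09%, with 0 called after adjustment in either setting. DESeq2 likewise had 0 members called and 0 at an unadjusted p under 0.05, and with the mouse as replicate block 0 members were called. Tnnt1, called in KO and not in WT, is among the 9, so a different layer gap of Tnnt1 in the genotypes is not shown.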

How the data were processed

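The authors made STRT libraries from 10 ng RNA with ERCC spike-ins as a 46-plex pool and deposited raw counts per gene for 45 libraries. The labels name HTSeq and build mm9. The study's methods, written for its embryo libraries, describe merging of reads by molecular identifier, alignment with TopHat and counting with Homer over UCSC genes; which counter made this table is not settled here. The labels name 7 mice per genotype, and well labels gave the plate rows. Total gene counts per library, 256298 to 1222627, set the floor of 3 counts.

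The members and lists were chosen with earlier results of these data known. Libraries of 1 mouse and tissue were summed (3 of KO mouse 13 endometrium, 2 of WT mouse 12 myometrium). Genes reaching 1 CPM or more in 5 or more samples that entered a comparison were tested with edgeR 4.0.16 (R 4.3.3, TMM without spike-ins, quasi-likelihood F test, Benjamini-Hochberg, threshold 0.05), for 6 comparisons, and SEs were derived from the fold change and F. Named genes were the 10 members, 8 family relatives, the 3 most like genes per member above 20 CPM and at most 4 genes per marker list by mean CPM; Myocd, Tcap and the listed genes without counts were named after their values were seen. On simulated counts for the WT layer comparison (13227 genes), 98% of 100 genes changed by 2 on the log2 scale were recovered, and 97% for uterus genotype (12959 genes). In these runs 16 and 8 unchanged genes were called. The changed genes all had a mean of at least 20 counts, and changes below 2 were not simulated. The recovery therefore does not cover members with fewer counts or smaller differences. Alternatives were DESeq2 1.42.0, RLE and spike-in scaling, other filters, the deepest repeat library, plate rows, all groups in 1 fit, the replicate block and leaving out each mouse.

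The layers pair by mouse, since the mouse number in the labels joins tissues of the same animal. Deviations from the group mean correlated between the layers of a mouse at a mean r of 0.0737 in WT (0.0338 to 0.0930) and 0.105 in KO (0.0687 to 0.154) over 14822 genes. For different mice the mean r was -0.0125 and -0.0175. Deviations from a group mean cancel within the group, so the value for different mice largely follows from that for the same mouse. It is therefore no separate baseline for the pairing.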

Additional observations from a re-analysis of the deposited data

Results flagged for a closer look

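Sets of a member and a group of 7 mice were examined where some mouse had at least 3 counts. Of these 47 sets, 4 had a mouse at the edge that stood far from the rest. The nominal chance rate is 5%, but the rate for sets with low or tied counts was not measured. Whether 4 sets are more than chance gives is therefore not known. Acta1 in KO endometrium was at 129 CPM (313 counts) in mouse 13, and the next mouse was at 4.93 CPM. Tnnt2 in KO endometrium was at 23.0 CPM (56 counts) in the same mouse, with the next at 2.18 CPM. Tnnt3 in WT endometrium was at 6.70 CPM (5 counts) in mouse 3, with the next at 1.18 CPM. Smooth muscle RNA was also high in these endometria, with a summed level of 25068 CPM in mouse 13 and 24363 CPM in mouse 3, and its part in these values was not tested. Tnni2 in KO myometrium was lowest in mouse 9, at 9.68 CPM on 3 counts, with the nearest at 39.2 CPM and the highest at 96.1 CPM, while Acta1 in the same sample stood at 394 CPM.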

How the results depend on the processing

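Over 283 alternative values of the members' layer differences, 272 kept direction and side of the threshold, 11 kept the direction and lost the call, and 0 reversed; the lost calls concern Actc1 and Ckm in WT and Tnnt1, Tnnc2 and Ckm in KO. Within plate rows D to F, with 4 KO mice, 5 members were called lower in KO endometrium in place of 8, and the smaller number of samples is part of that setting. In WT, Actc1 was not called with DESeq2 (adjusted p = 0.0570) or without mouse 1 or 10. Spike-in scaling moved the median of all genes in the layer difference to 0.21 in WT and 0.58 in KO, and 0 called members changed sign. For the genotype difference in myometrium, rows D to F called 1 member, Tnni2, where 0 were called otherwise, and 49 genes in all; the cause was not tested. The small genotype differences of the actins and Ckm changed sign under some settings, without a call in any. Within rows A to C the uterus values were -0.0347 for Actc1, -0.109 for Acta1 and -0.562 for Ckm, and spike-in scaling gave -0.0725 for Acta1. In endometrium Acta1 was at 0.357 with spike-in scaling, 1.84 within rows D to F and -3.002 to 1.05 with 1 mouse left out, the ends being KO mouse 13 and WT mouse 3. Ckm in endometrium was at -0.280 with DESeq2, -2.30 within rows A to C, -0.252 with plate rows as covariate, -0.130 without the 3 mice rich in Acta2 and -1.99 to 1.37 with 1 mouse left out. Ckm in myometrium was at 0.954 within rows D to F, 0.0929 with plate rows as covariate, 0.515 without those 3 mice and -0.255 to 0.284 with 1 mouse left out. With the mouse as replicate block, members called lower in endometrium were 6 in WT and 8 in KO, Tnnc2 among the latter. In the interaction 0 members were called, and the paired fit changed no call of a member. Over all genes the layer calls in KO were 2776 with the block and 2508 without; in the interaction they were 10 and 0. Of 293 alternative values of the genotype differences given in the text, 28 changed sign, of 264 of those not given, 13, and of 222 of the interaction, 47, so the direction of the small ones is not established. Depth limits Tnni1, Tnnc1 and Tnnc2 most, with 11, 39 and 36 counts in all.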

Other observations

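Across the 14 mice, and in relations chosen after the values were seen, 13 of the 15 member pairs in myometrium had a positive Pearson r, and 1 of them, Acta1 and Actc1, passed the adjusted threshold. Some positive values were small, such as 0.0136 for Acta1 and Tnnt3 and 0.0941 for Ckm and Tnni2. The pairs share genes and mice, and the share of positive pairs over all genes was not computed, so nothing is read from this count. Of 27 relations, Actc1 and the summed smooth muscle genes gave a Pearson r of 0.868 (permutation test, adjusted p = 0.0027) and a Spearman rho of 0.837 (adjusted p = 0.0124). The r was 0.733 without the 2 mice farthest from the median, 0.825 within plate rows A to C and 0.978 within rows D to F. Acta1 and Actc1 had an r of 0.787 (permutation test, adjusted p = 0.0225) and a rho of 0.631 (adjusted p = 0.0855), but r was 0.331 without the 2 farthest mice and 0.176 within rows D to F, so this relation rests on those mice. Acta1 in uterus and myometrium of a mouse had an r of 0.833 (adjusted p = 0.0157) and a rho of 0.684 (adjusted p = 0.0855), with 0.438 without the 2 farthest mice. Tnni2 and the fast troponin T Tnnt3 had an r of 0.0390 with each other, and 0.146 and 0.203 with smooth muscle, none past the threshold. Mice of both genotypes are pooled in these values.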
